A study of Mus musculus with 8 samples.

Results

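Fibronectin and the matricellular glycoproteins are secreted proteins of the extracellular matrix, the scaffold around the cells of the optic nerve and its sheath. The genes described are *Fn1*, the thrombospondins *Thbs1*, *Thbs2* and *Thbs4*, *Tnc*, *Postn*, *Sparc*, *Sparcl1*, *Spp1* and *Tgfbi*, 10 genes listed by name. The list was drawn up with earlier results of these data known, so that counts over it are not blind to the values. Of these, 9 were measured by 19 probe sets annotated to 1 gene symbol, out of 18193 genes and 45037 probe sets tested, and *Spp1*, the gene of osteopontin, was not analysed here. Each gene is given by its brightest probe set, the one with the highest mean log2 signal over the 8 arrays, and its other probe sets are given beside it. A further *Thbs1* probe set, annotated to a second symbol as well, was left out.

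The arrays compared 4 samples of mouse optic nerve cultured with 20 mM lithium chloride (Lithium 1 to 4) against 4 cultured with saline (Control 1 to 4). By the methods, this dose in the medium was meant to give a lower, therapeutic concentration within the nerve. The paper also describes nerves taken and kept with the retina intact. All nerves were wild type, came from mice aged P35 to P45 and spent 3 days in vitro as organotypic cultures, with 6 nerves pooled in a sample, after the arachnoid and attached tissue had been removed. The labels name the strain C57BL/6, whereas the methods name C57/BL10 as the wild-type background. Whether the 4 samples of either group stem from different cultures or mice is stated nowhere, and p-values therefore speak only of the scatter among these samples, possibly a technical one. The methods count fewer nerves for the transcriptomic work than 4 samples of 6 in each group would need, so that what n = 4 stands for is uncertain. The question was how lithium changes gene expression in adult white matter, here for the genes of adhesive matrix proteins. Each value is a MAS5 signal, a linear intensity that the authors' software scaled to the same trimmed mean on every array. Signals of different probe sets are not on a common scale. Where the signals of a list of markers are summed, the brightest probe sets weigh most, and a sum can hide changes of dimmer ones. The nerve is a mixture of cells, and in such bulk samples fewer cells of a type and less RNA per cell cannot be told apart.

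Fibronectin forms fibrils to which cells attach through integrins, and other matrix proteins, the thrombospondins and periostin among them, bind to it or are laid down beside it. Matricellular proteins lend the matrix little strength, but they change how cells hold on to it and how growth factors, TGF-beta above all, reach their receptors. In the optic nerve, fibronectin and periostin are typical of fibroblasts of the sheath and of vessel walls, and tenascin-C, Sparc and Sparcl1 are known products of astrocytes.

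Of the 9 genes, *Thbs2* alone passed the test, an adjusted p under 0.05 from limma over all probe sets, and it was lower in lithium-treated nerves. *Fn1* showed the widest difference, *Tgfbi* and *Thbs1* were also below every control array, and none of these 3 passed. No gene was called higher by limma, and at an unadjusted p under 0.05 there were 4 genes lower and 0 higher, beside 12.6% of all genes lower and 9.38% higher at that limit. Over all probe sets, 1.39% were called lower and 0.944% were called higher, and among the brightest probe sets of all genes 2.05% were called lower. The groups did not overlap for 4 of the 9 genes, each lower in Lithium, against 8.92% of all genes. The median log2 fold change of the 9 genes was -0.57, with a range of -2.67 to 0.28, beside 0.00 over all probe sets, and it was -0.29 without Lithium 1. With the replicate number as a block in limma, 0 of the 9 genes passed and 4 were at an unadjusted p under 0.05, all lower, beside 14.5% of all genes lower and 10.8% higher at that limit in the same fit. The counts over all probe sets were 104 lower and 20 higher, against 625 and 425 without the block.

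Lithium 1 stood apart from the other arrays. Its median signal was 12.3, against 15.2 to 16.5 on the other Lithium arrays and 14.8 to 17.5 on the Control arrays. Its 3′ to 5′ signal difference of the *Gapdh* control probe sets, a sign of RNA quality, was 0.53 in log2 units, against 0.35 to 0.43 on the other Lithium arrays and 0.34 to 0.40 on the Control arrays. For the *Actb* control probe sets Lithium 1 did not stand apart. Its difference was 0.63, against 0.55 to 0.78 on the other Lithium arrays and 0.64 to 0.70 on the Control arrays. Lithium 1 was also the lowest array for *Fn1*, *Thbs1*, *Postn*, *Tgfbi* and *Sparcl1*, and the part of RNA quality in their differences was not tested.

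**Figure D1:**
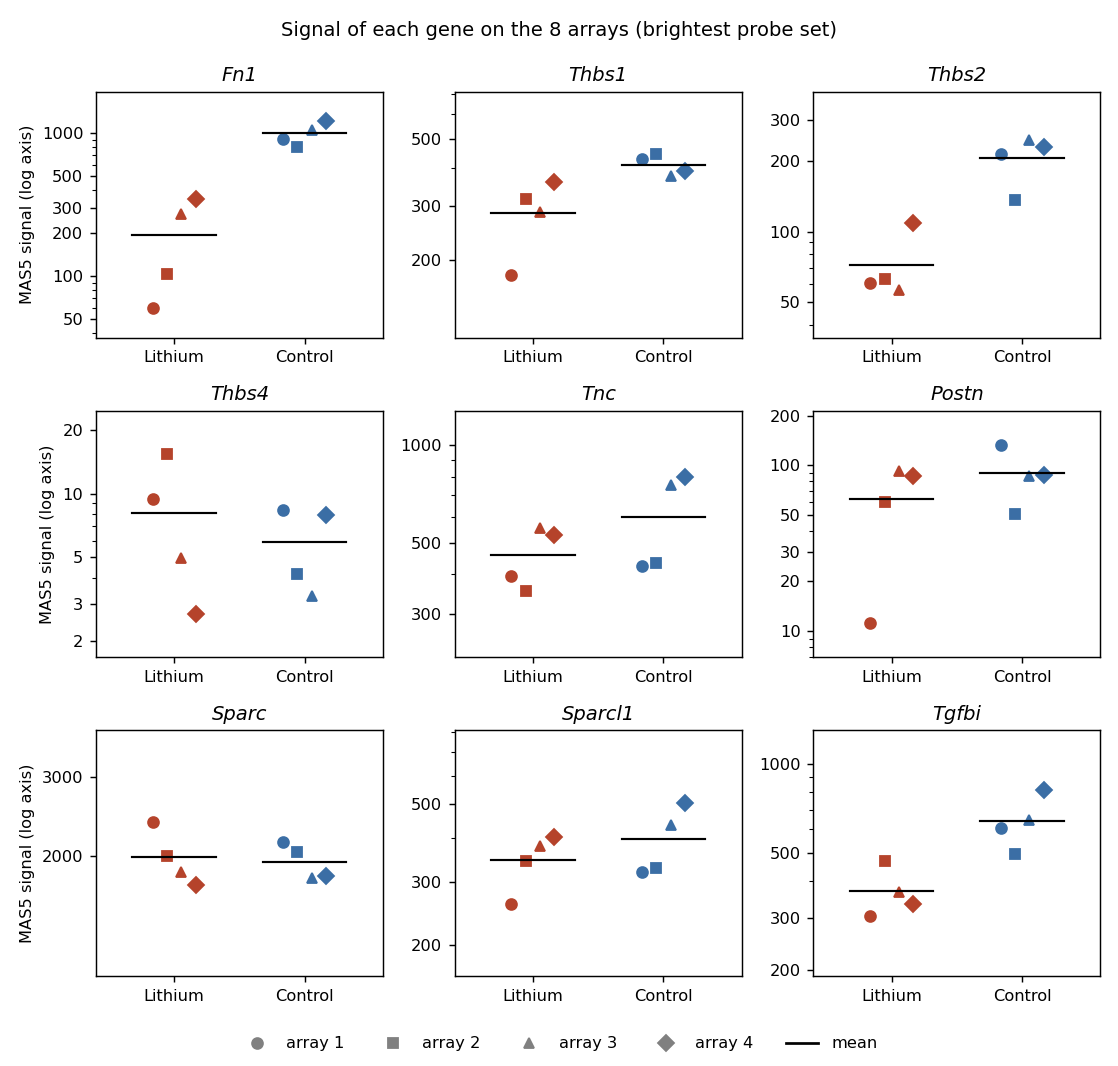
MAS5 signal (log axis, scaled intensity) of the 9 measured genes on each array, Lithium on the left and Control on the right of each panel, with marker shapes for arrays 1 to 4 and a line at the group mean. The groups lie apart for *Fn1*, *Thbs1*, *Thbs2* and *Tgfbi*, and overlap for the other 5 genes.

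*Fn1* encodes fibronectin, which cells assemble into fibrils. Its signals were 59.5, 103, 272 and 348 on the Lithium arrays, against 911, 796, 1059 and 1221 on the Control arrays. Every Lithium array lay below every Control array, and Lithium 1 and 2 were lower than Lithium 3 and 4. The mean was 196 ± 137 in Lithium and 997 ± 184 in Control (SD, n = 4 each). The log2 fold change was -2.67 (SE 0.57, 95% interval -4.02 to -1.31), with an adjusted p of 0.0676 in limma, just over the threshold. The unadjusted p was 0.00234 and the Lithium level was 0.158 of the Control level. The other probe set, 1437218_at, gave 2.61, 2.67, 5.72 and 3.37 in Lithium and 13.6, 13.9, 59.8 and 26.8 in Control. Its groups did not overlap either (log2 fold change -2.78, adjusted p = 0.0512 in limma), but its signals were low. On 3 of the Lithium arrays the signal did not exceed the highest signal of the poly-A control probe sets, which serve here as a background limit and reached 2.13 to 5.64 depending on the array.

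The *Fn1* difference was not the same size in all arrays. It was -3.44 on the log2 scale within arrays 1 and 2, and -1.89 within arrays 3 and 4. Adjusted p-values of limma for *Fn1* ran between 0.0134 and 0.159 over 17 other ways of processing, and 6 of them were under the threshold. Leaving out any 1 array gave -3.05 to -2.20 and adjusted p-values of 0.0573 to 0.159, none of them under the threshold. Without Lithium 1 it was -2.20 (adjusted p = 0.0913).

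The thrombospondins are multidomain calcium-binding glycoproteins that bind cell surface receptors such as CD36, CD47 and the calcium channel subunit encoded by *Cacna2d1*. *Thbs1* and *Thbs2* form trimers and are known as inhibitors of blood vessel growth and, from astrocytes, as promoters of synapse formation, and thrombospondin 1 can activate latent TGF-beta. *Thbs4* belongs to the pentameric subgroup and is found in tendon, muscle and nervous tissue.

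*Thbs2* had signals of 60.3, 62.7, 56.6 and 109 in Lithium and 215, 136, 247 and 230 in Control. The groups did not overlap, and Lithium 4 and Control 2 came closest to each other. The mean was 72.2 ± 24.9 in Lithium and 207 ± 49.3 in Control (SD, n = 4 each), and *Thbs2* fell by 1.54 on the log2 scale (SE 0.28, 95% interval -2.19 to -0.88, adjusted p = 0.0434 in limma). The difference was nearly the same within arrays 1 and 2, at -1.48, as within arrays 3 and 4, at -1.60. The call was close to the threshold. It was lost with the replicate block (adjusted p = 0.0843), with the mean of its 3 probe sets (0.118) and in 7 of 8 fits without 1 array, whose adjusted p-values ran between 0.0384 and 0.117 and whose log2 fold changes ran between -1.76 and -1.44. Of these 8 fits only the one without Lithium 4 kept it.

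The other *Thbs2* probe sets were dimmer and did not pass. With 1422571_at the signals were 17.6, 16.8, 14.1 and 36.3 in Lithium and 41.3, 20.6, 81.2 and 90.3 in Control, a log2 fold change of -1.34 (adjusted p = 0.258 in limma). With 1447862_x_at the log2 fold change was -1.32 (adjusted p = 0.372). Both pointed the same way as the brightest probe set, with groups that overlapped.

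The promoter of *Thbs2* is shown because it is the called gene, and that of *Tgfbi* because its groups did not overlap and it has an entry in the RefSeq table used (GRCm38.p6). Both are the 250 bases before the annotated start, *Thbs2* on the minus strand at chr17:14694263-14694512 and *Tgfbi* on the plus strand at chr13:56609336-56609585, written 5′ to 3′. Capitals mark matches to 6 motifs, each searched on both strands. The TATA box was searched as TATAAA and the site of the AP-1 factors as TGANTCA. The SMAD proteins, the effectors of TGF-beta, were given the letters CAGAC, and the TCF/LEF factors, the effectors of Wnt signalling, the letters CTTTGAT. The E-box was searched as CACGTG, and the site of serum response factor by the usual letters of the CArG box.
Thbs2: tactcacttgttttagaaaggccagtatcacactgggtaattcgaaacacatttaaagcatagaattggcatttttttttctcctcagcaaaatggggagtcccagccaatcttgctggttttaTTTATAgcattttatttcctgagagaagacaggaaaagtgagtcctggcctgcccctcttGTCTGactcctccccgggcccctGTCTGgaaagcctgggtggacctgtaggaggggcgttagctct
Tgfbi: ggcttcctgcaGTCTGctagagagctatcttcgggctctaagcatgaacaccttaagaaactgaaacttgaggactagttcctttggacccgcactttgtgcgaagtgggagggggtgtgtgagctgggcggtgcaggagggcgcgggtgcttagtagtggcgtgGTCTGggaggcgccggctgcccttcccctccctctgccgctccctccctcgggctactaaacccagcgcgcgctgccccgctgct
The *Thbs2* window held 1 TATA box motif, 126 bases before the start, and 2 SMAD motifs, 66 and 43 bases before it, all read on the opposite strand. The *Tgfbi* window held 2 SMAD motifs, 239 and 85 bases before the start, also read on the opposite strand. The SMAD motif is in 42.2% of all 32851 promoters of this length and the TATA box in 12.4%, so that such matches are common and are given as a description only. Of the 10 genes, 7 matched the table (all but *Fn1*, *Thbs1* and *Sparcl1*). In the 10 windows of these, *Thbs2*, *Thbs4*, *Tnc*, *Postn*, *Sparc*, *Spp1* and *Tgfbi*, these letters for AP-1 (6.75% of all promoters), TCF/LEF (3.21%), the E-box (6.02%) and the CArG box (1.47%) were not found.

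*Thbs1* gave 178, 317, 287 and 359 in Lithium and 427, 445, 377 and 391 in Control. Every Lithium array was below every Control array, by a narrow margin for Lithium 4. The mean was 285 ± 77.4 in Lithium and 410 ± 31.7 in Control (SD, n = 4 each). The log2 fold change of -0.57 (SE 0.22, 95% interval -1.08 to -0.05) did not pass (adjusted p = 0.234 in limma). It rested more on arrays 1 and 2, at -0.88, than on arrays 3 and 4, at -0.26, and without Lithium 1 it was -0.36. The dimmer probe set 1450377_at overlapped between groups (-0.34, adjusted p = 0.668).

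*Thbs4* was dim, with 9.46, 15.4, 4.99 and 2.70 in Lithium and 8.33, 4.18, 3.26 and 7.96 in Control. The groups overlapped throughout. The log2 fold change was 0.28 with a 95% interval of -1.14 to 1.70 (adjusted p = 0.874 in limma), so that changes of over 2-fold either way lie within it, and the sign turned without Lithium 2 (-0.12) and with array weights (-0.02).

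*Tgfbi* encodes a secreted protein with fasciclin domains, induced by TGF-beta in many cells, that binds collagens and integrins. Its signals were 304, 470, 368 and 335 in Lithium and 604, 493, 646 and 812 in Control. The groups did not overlap, though Lithium 2 lay just under Control 2. The mean was 369 ± 72.0 in Lithium and 639 ± 132 in Control (SD, n = 4 each), and the log2 fold change was -0.79 (SE 0.19, 95% interval -1.24 to -0.33, adjusted p = 0.0911 in limma). The unadjusted p was 0.00457. The difference was -0.53 within arrays 1 and 2 and -1.05 within arrays 3 and 4. Among 18 other ways of processing, 1 brought *Tgfbi* under the threshold, the fit on probe sets with a mean signal of at least 50 (adjusted p = 0.0342).

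All 4 probe sets of *Tgfbi* were lower in Lithium. The values above are those of 1448123_s_at, whose suffix an alternative left out together with _x_at. The probe set 1415871_at, with neither suffix, gave 248, 394, 307 and 285 in Lithium and 511, 420, 577 and 804 in Control. Its groups did not overlap either (-0.89, adjusted p = 0.104 in limma). The 2 probe sets with the suffix _x_at, whose probes may match other transcripts, gave -1.20 (adjusted p = 0.297) and -1.26 (adjusted p = 0.259) in limma, with groups that overlapped.

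*Postn* encodes periostin, the other fasciclin-domain protein listed, which is typical of fibroblasts and binds fibronectin and tenascin-C. Its signals were 11.2, 59.9, 93.1 and 86.0 in Lithium and 133, 50.7, 86.3 and 87.9 in Control. Lithium 1 was far below all other arrays, and the other 3 Lithium arrays lay within the range of the Control arrays. The log2 fold change of -0.81 (95% interval -2.51 to 0.89, adjusted p = 0.647 in limma) rested on that array, since it was -0.11 without Lithium 1. It was -1.67 within arrays 1 and 2 and 0.04 within arrays 3 and 4.

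*Tnc* encodes tenascin-C, a large hexameric glycoprotein that reactive astrocytes and fibroblasts lay down. It gave 394, 354, 557 and 529 in Lithium and 423, 433, 754 and 799 in Control. Arrays 3 and 4 were higher than arrays 1 and 2 in both groups, and the groups overlapped. The mean was 458 ± 99.7 in Lithium and 602 ± 202 in Control (SD, n = 4 each), a log2 fold change of -0.36 (95% interval -1.02 to 0.30, adjusted p = 0.592 in limma, SE 0.28). *Tnc* was lower in Lithium in all 4 pairs of arrays with the same number. The SE was 0.10 with the replicate block (adjusted p = 0.180) and 0.086 with a term for arrays 1 and 2 against 3 and 4 (adjusted p = 0.0706), neither passing in limma. The dimmer probe set 1456344_at pointed the other way (0.47, adjusted p = 0.775), and the mean of both probe sets gave 0.06.

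*Sparc* encodes osteonectin, a collagen-binding glycoprotein, and *Sparcl1* encodes its relative hevin, which astrocytes secrete at synapses. *Sparc* gave 2375, 1999, 1842 and 1725 in Lithium and 2149, 2033, 1782 and 1799 in Control. The groups overlapped almost fully, and in both of them arrays 1 and 2 were higher than arrays 3 and 4. The log2 fold change was 0.03 (95% interval -0.26 to 0.31, adjusted p = 0.965 in limma), the narrowest interval among the brightest probe sets of the 9 genes, and its sign turned in several other ways of processing. The bright probe set 1416589_at gave 0.05 (95% interval -0.14 to 0.24), while 1458204_at was at or under the poly-A limit on 6 arrays. *Sparcl1* gave 261, 345, 379 and 404 in Lithium and 320, 329, 436 and 504 in Control, also with overlap. Its log2 fold change was -0.19 (95% interval -0.66 to 0.29, adjusted p = 0.703 in limma).

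**Figure D2:**
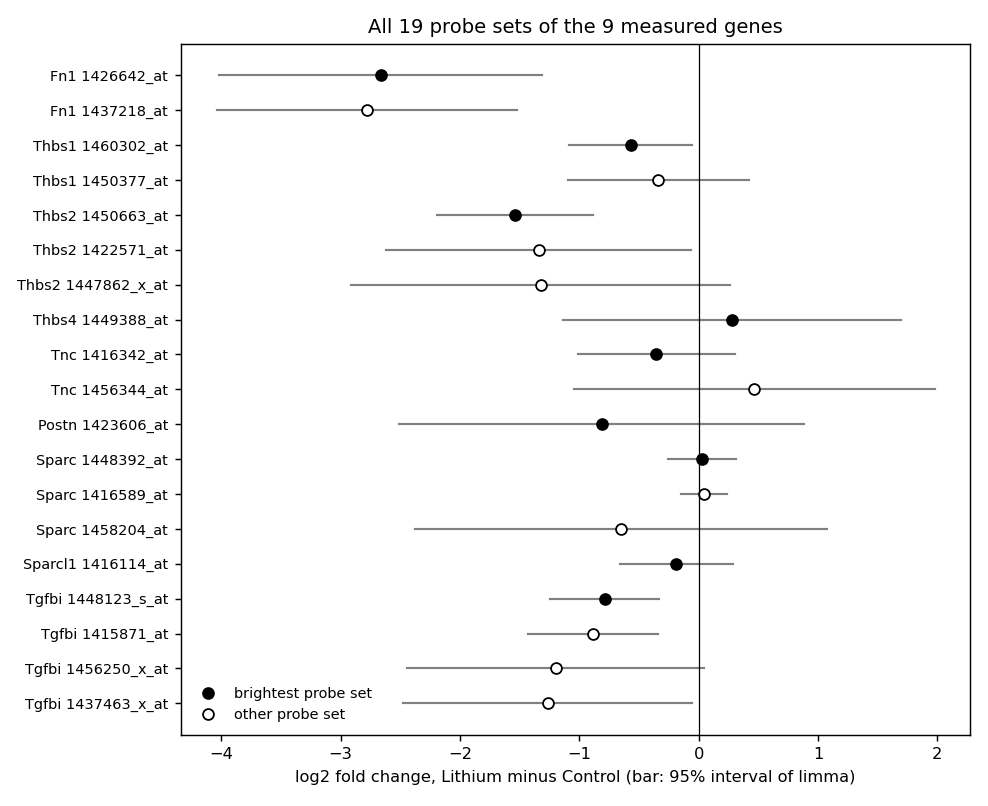
Log2 fold change, Lithium minus Control, of all 19 probe sets (dot) with the 95% interval of limma (bar), filled for the brightest probe set of each gene. Of the 19, 15 lie below 0, 8 have an interval that does not reach 0, and the 2 bright *Sparc* probe sets have the shortest intervals, around 0.

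Over all 19 probe sets, 15 had a log2 fold change below 0 and 6 had groups that did not overlap, each lower in Lithium, against 6.44% of all probe sets. An unadjusted p under 0.05 was reached by 8 of the 19, all lower in Lithium, against 9.39% of all probe sets lower at that limit. The probe sets of a gene share its RNA and are not replicates. The genes also differed in how much the arrays of a group varied. The coefficient of variation of *Fn1* was 70.0% in Lithium and 18.5% in Control, and that of *Thbs1* was 27.2% in Lithium and 7.73% in Control.

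**Figure D3:**
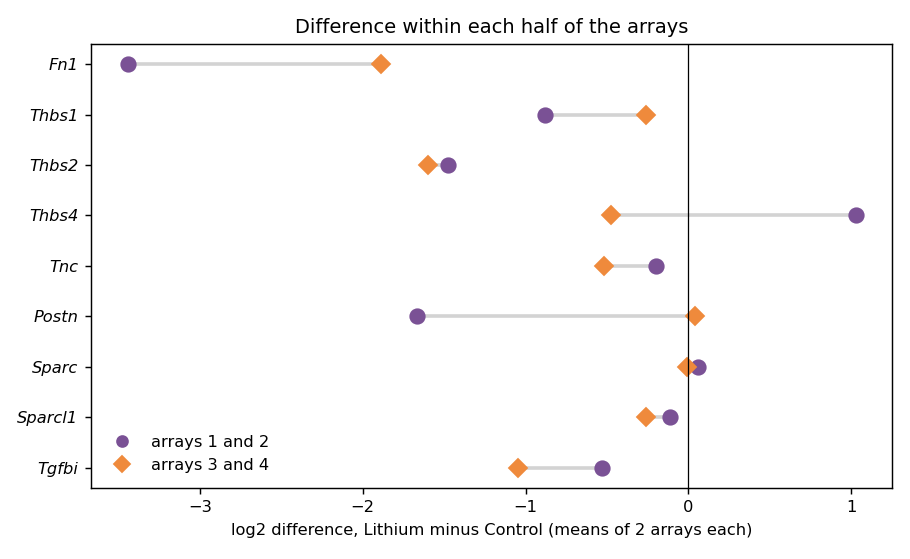
Log2 difference of the brightest probe set of each gene, Lithium minus Control, taken within arrays 1 and 2 (circle) and within arrays 3 and 4 (diamond), each the difference of means of 2 arrays. *Fn1*, *Thbs2* and *Tgfbi* are below 0 in both, while *Postn*, *Thbs4* and, close to 0, *Sparc* lie on different sides of it.

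Arrays 1 and 2 differed from arrays 3 and 4 in both groups, a division that no label names. Within arrays 1 and 2 alone and within arrays 3 and 4 alone, *Fn1*, *Thbs1*, *Thbs2*, *Tnc*, *Sparcl1* and *Tgfbi* were each lower in Lithium, by 0.11 or more on the log2 scale. With a term for that division in the fit, *Fn1* (adjusted p = 0.0192) and *Thbs2* (adjusted p = 0.0257) passed in limma, and no other of the 9 genes did. What sets these arrays apart was not tested.

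**Figure D4:**
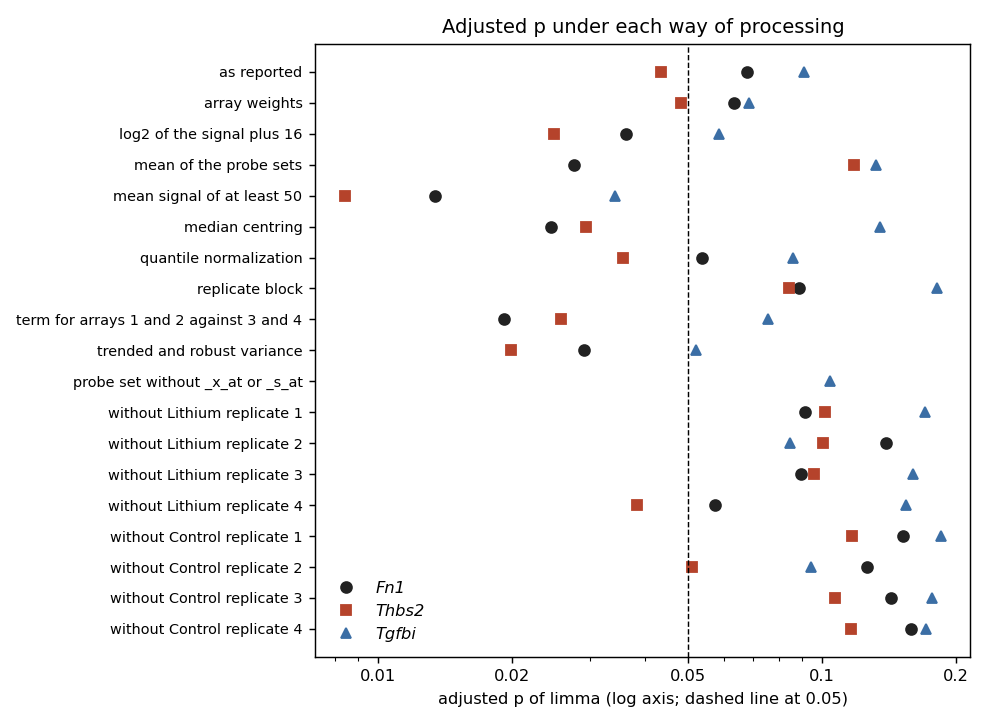
Adjusted p of limma (log axis, dashed line at 0.05) for *Fn1* (circle), *Thbs2* (square) and *Tgfbi* (triangle) as reported and under each other way of processing. *Thbs2* is left of the line in 8 of 17, *Fn1* in 6 of 17 and *Tgfbi* in 1 of 18 of them.

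Cells sense these proteins through integrins and other receptors. Of 21 receptor genes, 4 passed the test of limma and each was lower in Lithium, beside 2.05% of all genes, and the median log2 fold change was -0.35. At an unadjusted p under 0.05 there were 8 lower and 1 higher, of 21, beside 12.6% of all genes lower and 9.38% higher, the shares to be set beside the like counts of the next 3 lists. With the replicate block in limma, no gene of this list or of the 3 related lists that follow passed. *Itgb3*, whose product pairs with that of *Itgav* in an integrin that binds fibronectin, periostin and osteopontin, gave 75.8, 100.5, 104 and 79.3 in Lithium and 185, 199, 198 and 266 in Control. The groups did not overlap, and *Itgb3* fell by 1.24 in log2 units (adjusted p = 0.0201 in limma). *Cacna2d1*, a thrombospondin receptor, fell by 1.06 (adjusted p = 0.0241). With the probe sets of a gene averaged, neither passed, at -1.37 for *Itgb3* (adjusted p = 0.127) and -0.72 for *Cacna2d1* (adjusted p = 0.0568). *Itga9*, whose product binds tenascin-C and osteopontin, and *Itgb1*, the partner of most alpha subunits, were the other 2 called (adjusted p = 0.0314 for *Itga9* and 0.0413 for *Itgb1*). *Itga9* was dim, with signals of 5.93 to 9.02 in Lithium and 14.2 to 19.2 in Control. Of 8 fits without 1 array, *Itgb3* passed in 4, *Cacna2d1* in 2, *Itga9* in 1 and *Itgb1* in 0. *Itga9* was also lost with the mean of its probe sets (-0.53, adjusted p = 0.219), and *Itgb1* with median centring (adjusted p = 0.187). *Itgav* and *Cd44*, the receptor of osteopontin and hyaluronan, did not pass, at -0.01 and 0.08, and *Itga5*, the classical fibronectin receptor subunit, was at 0.44 without passing.

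TGF-beta induces several of the 9 genes in fibroblasts and glia. Of 19 genes for its ligands, receptors and common targets, 2 passed, both lower in Lithium, and the median was -0.41, with 10 lower and 1 higher at an unadjusted p under 0.05. *Tgfb1*, the first of the ligands, gave 25.5, 22.3, 49.4 and 46.3 in Lithium and 105, 94.0, 136 and 147 in Control, and fell by 1.81 in log2 units (adjusted p = 0.0392 in limma). *Tgfbr3*, the co-receptor betaglycan, fell by 0.46 (adjusted p = 0.0206). Both calls were lost under other settings. With the mean of its probe sets *Tgfb1* was at -0.69 (adjusted p = 0.0573), and it passed in 0 of 8 fits without 1 array (adjusted p 0.0551 to 0.106). *Tgfbr3* was at -0.37 with median centring (adjusted p = 0.359), at -0.53 with the mean of its probe sets (adjusted p = 0.0642), and passed in 3 of the 8 fits. *Tgfb2* had groups that did not overlap in the other direction, at 0.60, and did not pass (adjusted p = 0.163).

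Among 30 other matricellular and adhesive glycoproteins, 3 passed, each lower in Lithium, and the median was -0.39, with 9 lower and 1 higher at an unadjusted p under 0.05. They were *Npnt* (nephronectin, an integrin ligand, -1.11, adjusted p = 0.0255), *Smoc2* (a Sparc-related protein, -3.88, adjusted p = 0.0406) and *Fgl2* (a fibrinogen-like protein, -0.83, adjusted p = 0.0428), by limma. *Smoc2* was at or under the poly-A limit on 3 Lithium arrays, so that the size of its change is uncertain. Of 8 fits without 1 array, *Npnt* passed in 2, *Smoc2* in 1 and *Fgl2* in 0, and with median centring *Npnt* (adjusted p = 0.0555) and *Fgl2* (adjusted p = 0.146) were lost. Of 17 enzymes that cleave or cross-link matrix proteins, 1 passed, *Loxl1*, a lysyl oxidase of elastic fibres (-2.33, adjusted p = 0.0438), and the median was -0.26, with 5 lower and 0 higher at an unadjusted p under 0.05. *Loxl1* passed in 1 of 8 fits without 1 array. The brightest *Lox* probe set was at -3.34 (adjusted p = 0.0504). These lists share *Ccn2*, *Acta2* and *Tagln* with one another or with the cell type lists.

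**Figure D5:**
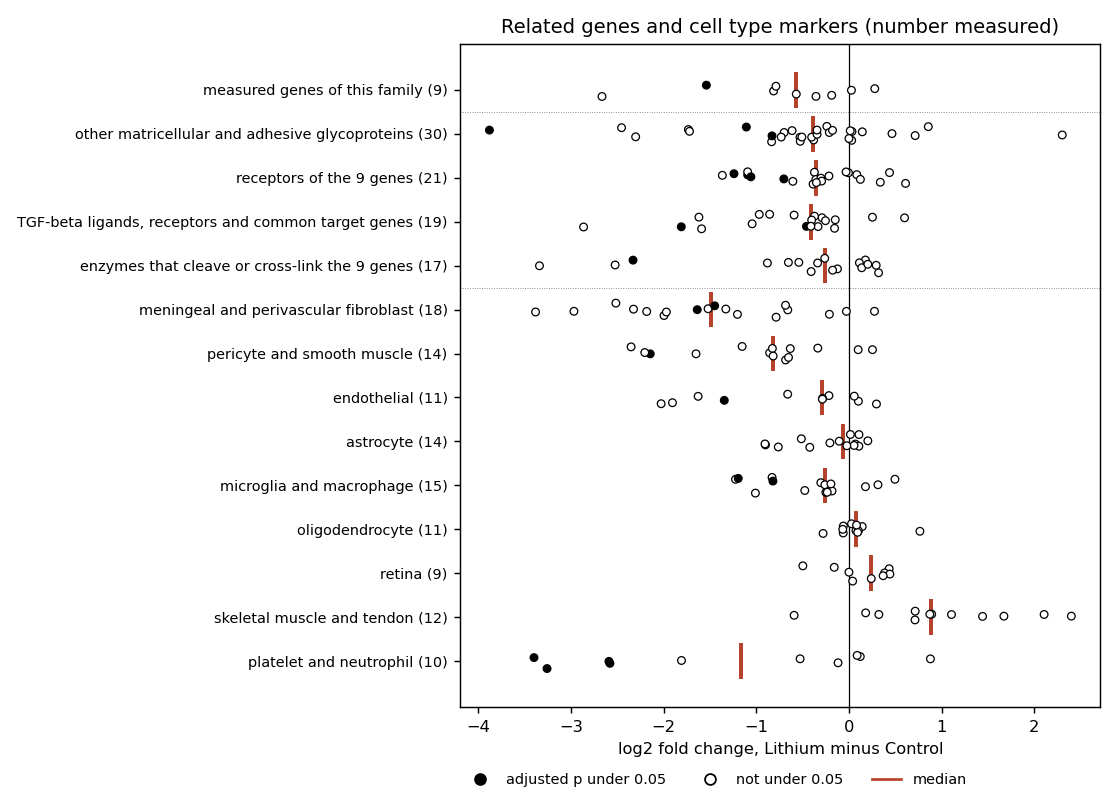
Log2 fold change, Lithium minus Control, of the brightest probe set of each gene in the 9 measured genes, the 4 related lists and 9 cell type marker lists, filled where the adjusted p of limma was under 0.05, with a red line at the list's median. The medians run from -1.48 for fibroblast markers to 0.88 for skeletal muscle and tendon markers.

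Markers of some cell types differed between the groups as well. As for the labelled tissue, the myelin gene *Mbp* gave 2028 to 3114 in Lithium and 2217 to 2431 in Control, the astrocyte gene *Gfap* gave 1266 to 1622 in Lithium and 1471 to 1687 in Control, and the summed signal of 14 astrocyte markers was 11402 to 13423 in Lithium and 12174 to 12696 in Control. The summed signal of 18 meningeal and perivascular fibroblast markers was 904 to 1857 in Lithium and 2203 to 2783 in Control, with no overlap. Of these 18, 17 had a log2 fold change below 0, and the median was -1.48, beside -0.003 over all genes. In limma 2 of the 18 passed, both lower, beside 2.05% of all genes called lower. The first 3 of the 18 were *Pdgfra* (-1.52, adjusted p = 0.124), *Slc6a13* (-1.20, adjusted p = 0.432, groups that overlapped, and -0.65 without Lithium 1) and *Foxc1* (-1.64, adjusted p = 0.0108). No array listed any of these 3 at 0, and *Slc6a13* was at or under the poly-A limit on 1 array. *Pdgfra* gave 101, 114, 312 and 307 in Lithium and 493, 425, 599 and 592 in Control, with the same low Lithium 1 and 2 as *Fn1*. Of 14 pericyte and smooth muscle markers 1 passed in limma, *Pdgfrb* (-2.14, adjusted p = 0.0401), and *Rgs5* (-0.68, adjusted p = 0.639) and *Acta2* (-0.86, adjusted p = 0.461) did not. The summed signals, 1258 to 2142 in Lithium and 1463 to 2290 in Control, overlapped. Of 11 endothelial markers 1 passed, *Kdr* (-1.35, adjusted p = 0.0321), and *Pecam1* (0.10, adjusted p = 0.883) and *Cdh5* (-1.63, adjusted p = 0.0771) did not. *Kdr* was dim, with signals of 5.63 to 7.25 in Lithium and 11.3 to 22.1 in Control. The endothelial sums were 302 to 689 in Lithium and 609 to 1198 in Control. Both counts stand beside the same 2.05% of all genes. With the replicate block in limma none of *Foxc1* (adjusted p = 0.0564), *Pdgfrb* (adjusted p = 0.0550) and *Kdr* (adjusted p = 0.0989) passed. Of 8 fits without 1 array *Foxc1* passed in 8, *Pdgfrb* in 1 and *Kdr* in 1. The part of these cells in the differences of *Fn1*, *Thbs2* and *Tgfbi* was not tested.

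Markers of blood and of neighbouring tissue were looked at as well. Microglia and macrophage markers summed to 3765 to 4907 in Lithium and 4515 to 6321 in Control, with 2 of 15 called lower. Of 10 platelet and neutrophil markers 4 were called lower, with sums of 1220 to 1350 in Lithium and 1821 to 2603 in Control. Of all genes, 2.05% were called lower. The platelet gene *Pf4*, which weighs most in the latter sums, gave 974 to 1202 in Lithium and 858 to 1146 in Control (0.12, adjusted p = 0.663 in limma). Of the 10, 7 were below 0, among them *Ppbp* (-2.59, adjusted p = 0.0358) and *S100a8* (-3.26, adjusted p = 0.0162). With the replicate block 1 of the 10 passed, the neutrophil gene *Camp*, and none of the 15 microglia and macrophage markers. Retinal markers, 5 of 9 of which were at or under the poly-A limit on all arrays, summed to 35.1 to 57.1 in Lithium and 26.7 to 52.4 in Control. Skeletal muscle and tendon markers reached 746 on Lithium 2, against 122 at most in Control, and *Thbs4*, which muscle and tendon also express, was highest on that array. The share of such tissue in the *Thbs4* signal was not tested. As for RNA quality, the 3′ to 5′ signal difference of the control probe sets was 0.43 ± 0.07 in Lithium and 0.37 ± 0.02 in Control for *Gapdh* (log2 units, SD, n = 4 each, exact permutation test, two-sided p = 0.171, the smallest possible being 0.0286) and differed by -0.02 for *Actb* (exact permutation test, p = 0.657).

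Among 7701 genes with a mean signal of at least 100 in 1 group, those whose log2 signals over the 8 arrays ran most like those of a listed gene were found by Pearson's r, as a description in which the difference between groups is part of the likeness. For *Fn1* they were *Tpm2* (a tropomyosin, r = 0.997), *Dtl* and *Rrm2* (genes of DNA replication, both r = 0.994). For *Thbs2* they were *Ect2* (a cytokinesis gene, 0.997), *Usp46* (0.977) and *Mical2* (0.975), and for *Tgfbi* they were *Fxyd6* (0.981), *Ptgr1* (0.977) and *Cdh11* (a mesenchymal cadherin, 0.968). *Postn* ran with *Dpt*, the fibroblast gene of dermatopontin (0.989), *Thbs1* with *Uap1* (0.986), *Sparc* with *Hadh* (0.983), *Sparcl1* with *Cdk4* (0.979), *Tnc* with *Ppp1r21* (0.986) and *Thbs4* with *Pawr* (0.934). Of the genes named, *Dtl*, *Ect2*, *Mical2*, *Fxyd6* and *Dpt* reached the limit of 100 in Control only. Their Lithium means were 28.8, 18.7, 39.6, 62.3 and 86.2, so that the limit itself let in genes low in Lithium.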

How the data were processed

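Total RNA from 8 samples of cultured mouse optic nerve was measured on Affymetrix Mouse Genome 430 2.0 arrays. The deposited intensities were made by the authors with the MAS5 algorithm in GeneSpring GX, 1 linear value per probe set and array, and their 2% trimmed mean was 99.98 on every array, which hides any change of total RNA. The baseline transformation of the methods was not seen in the deposited values. Of 45101 probe sets 64 Affymetrix controls were left out, and 34945 of the rest carried 1 symbol, 932 several and 9160 none in the platform annotation. Entrez identifiers of 34741 were found in a RefSeq table, where 0 symbols differed.

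Intensities were floored at 1 (14.5% of values were lower), taken to log2 and put through limma 3.58.1 (lmFit, then eBayes; R 4.3.3) with no block and with Benjamini-Hochberg adjustment, a moderated test being what the study's results text names. Adjustment ran over all 45037 probe sets, and a call needed an adjusted p under 0.05. Means ± SD refer to linear signals, log2 fold changes to the difference between group means of log2. Intervals are at 95%. Precision is limited by having 4 arrays in each group.

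By rule, the genes to name were all listed genes, up to 2 higher and 2 lower genes of each related list with the lowest adjusted p, the first 3 markers of each cell type and the 3 genes most like each listed gene. Not all of these markers and like genes are given in the text. *Fgl2*, *Itga9*, *Itgb1*, *Itgav*, *Itga5*, *Cd44*, *Tgfb2*, *Lox* and *Camp* fall outside that rule and were chosen after their values were seen. Members and lists were chosen with earlier results of these data known.

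After subtraction of group means, arrays with the same number correlated by 0.130 to 0.197 (mean 0.160). Other arrays within 1 and 2 or within 3 and 4 correlated by 0.0706 to 0.131, and arrays across them by -0.136 on average. The first 2 ranges overlap slightly, so that pairing by number is uncertain. The numbers were used as pairs only in the alternative fit with the replicate block, from the data alone, and the reported fit ignores them. The fit was tested on simulated data of independent normal values. These had neither the division of arrays 1 and 2 from 3 and 4 nor any pairing, so that the test does not cover such structure. Alternatives were quantile normalization, median centring, log2 of the signal plus 16, a mean signal of at least 50, the mean of the probe sets, probe sets without the suffixes _x_at and _s_at, array weights, a variance model both trended and robust, the replicate block, a term for arrays 1 and 2 against 3 and 4, each array left out in turn, and a fold change of at least 2 with a level of at least 200, limits named in the study's results text. Promoters came from RefSeq (GRCm38.p6). Plots were made in Python 3.11.15 (matplotlib 3.10.9).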

Additional observations from a re-analysis of the deposited data

Results flagged for a closer look

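Each of the 38 groups of 4 arrays over the 19 probe sets was looked at for 1 array far from the other 3, and 3 were found, where chance gives about 1 in 20, or 1.9 groups. For *Thbs2*, Lithium 4 had a signal of 109, against 56.6 to 62.7 on the other Lithium arrays, a gap of 0.884 of the group's range. The probe set 1422571_at of *Thbs2* had the same array apart, with 36.3 against 14.1 to 17.6 on the other Lithium arrays, a gap of 0.845 of the range. The probe set 1458204_at of *Sparc* had 3.70 on Lithium 2, against 0.341 to 0.429 on the other Lithium arrays, a gap of 0.974 of the range, with all 4 at or under the poly-A limit.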

How the results depend on the processing

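Without 1 array, the count of the 9 genes called lower ran between 0 and 1 (1 only without Lithium 4), their median log2 fold change between -0.69 and -0.29 (-0.29 without Lithium 1), and the counts over all probe sets between 98 and 412 lower and between 71 and 205 higher. Of the 9 genes, 2 were called lower with log2 of the signal plus 16, median centring or the trended and robust variance. The term for arrays 1 and 2 against 3 and 4 also gave 2, and the replicate block gave 0. With a mean signal of at least 50, 3 were called lower, in a fit over fewer probe sets that leaves out the dim *Thbs4*. Over all probe sets, 1036 were lower and 699 higher with log2 of the signal plus 16, 1764 and 1070 with the term for arrays 1 and 2 against 3 and 4, 104 and 20 with the replicate block, and 60 and 32 under the limits of a 2-fold change and a level of 200. No gene of the 9 was called higher by limma in any of these. *Fn1*, *Thbs1*, *Thbs2*, *Postn*, *Sparcl1* and *Tgfbi* kept their direction in every alternative run.

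Directions turned mostly where the value was near 0. With array weights the log2 fold change was -0.020 for *Thbs4*, -0.032 for *Sparc*, -0.028 for *Mbp* and -0.30 for *Acta1*, with quantile normalization -0.047 for *Sparc*, -0.031 for *Mbp* and -0.011 for *Mog*, with the mean of the probe sets -0.19 for *Sparc*, 0.055 for *Tnc* and 0.0037 for *Gfap*, and with log2 of the signal plus 16 it was -0.031 for *Acta1*. With median centring it was 0.082 for *Itgav*. Without 1 array the values ran between -0.12 and 0.71 for *Thbs4*, -0.063 and 0.091 for *Sparc*, -0.070 and 0.28 for *Pecam1*, -0.036 and 0.17 for *Mbp*, -0.010 and 0.11 for *Mog*, -0.21 and 0.54 for *Gnat1*, -0.089 and 0.059 for *Itgav*, -0.81 and 1.38 for *Acta1*, and -0.063 and 0.014 for the 3′ to 5′ difference of *Actb*. The cause was not tested, and with 4 arrays in a group a left-out array also leaves a smaller fit. Median centring moved the median of all probe sets by 0.087, the widest of the shifts. Signals near the poly-A limit, as for *Thbs4*, bound no change.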
